A study of Mus musculus with 4 samples.

Results

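The cytochrome P450 genes were taken as every gene in the deposited count table whose symbol is Cyp followed by a family number, a subfamily letter and a gene number. This rule found 95 of 56748 genes. Pseudogenes were left out, and genes whose symbols have another form, such as Cyp51 and the pair Cyp3a41a and Cyp3a41b, were not matched.

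The small intestine (SI) of p53+/+ mice (WT in the labels) and p53-/- mice was collected 1 day post 12 Gy total body irradiation (TBI) from a Cs-137 γ-source, with 2 RNA-seq libraries per genotype. All 4 libraries came from irradiated animals, so the values compare genotypes after TBI and hold no unirradiated level. The study used age- and gender-matched mice, and p53+/+ and p53-/- mice were bought as separate stocks, and the deficiency is present in every tissue. The libraries are called 7 and 8 (p53+/+) and 9 and 10 (p53-/-) after the columns of the table, and values of a gene are given in that order.

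P450 enzymes are heme proteins that insert 1 oxygen atom into lipids, sterols, vitamins, drugs and plant compounds. Most sit in the endoplasmic reticulum and take electrons from the reductase Por, and a few sit in mitochondria and take them from ferredoxin (Fdx1) and its reductase (Fdxr). In the SI they are found mainly in enterocytes of the villus, where they act on food compounds and drugs before these reach the liver and on fatty acids and eicosanoids made in the gut wall. Several are switched on by nuclear receptors that sense ligands, such as Nr1i2 (the pregnane X receptor), and by the aryl hydrocarbon receptor Ahr.

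Levels are CPM, read counts scaled to a common library size by TMM, from libraries that held from 15005479 to 22173164 counts. Trp53 was at 57.7, 47.1, 19.8 and 22.5 CPM, so reads of the gene remained in the libraries labelled p53-/-. The quasi-likelihood test of edgeR, adjusted by Benjamini-Hochberg at 0.05 and called edgeR QL from here on, was run on 16094 genes that passed a filter on low counts, and put 48 past the threshold as higher and 31 as lower in p53-/- SI. The enterocyte markers Vil1 (1690 to 2868 CPM) and Sis (1270 to 1410 CPM) were abundant in every library, and Lct and Fabp1 did not exceed 5.45 CPM. Of 10 liver markers, Alb and Ahsg had 0 counts, and others were read. Cps1 was at 347, 219, 525 and 392 CPM, and Fga had 0, 0, 32 and 9 counts. Of the 4 liver markers tested, 0 had a negative difference (50.7% of all genes did), and their median log2 fold change was 0.37. The part of liver-type reads in the P450 levels was not tested. Libraries of a genotype were unlike in other cells. Summed smooth muscle markers were at 5142 CPM in library 8 and between 558.8 and 1164 CPM in the others, and summed B cell markers were at 580 CPM in library 10 and between 2.29 and 28.8 CPM in the others. The ribosomal RNA gene Rn18s-rs5 took 4.59% of the counts of library 10 and at most 0.863% of the others.

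P450 transcripts as a whole were less abundant in the p53-/- SI. Summed over the 95 genes, they made up 4133, 3491, 2205 and 2000 CPM, so that the p53-/- mean was 55.1% of the p53+/+ mean (3812 ± 454 against 2102 ± 145 CPM, SD, n = 2). Neither p53-/- library reached the lower p53+/+ library. One gene, Cyp4f14, supplied 46.9%, 47.0%, 46.5% and 41.6% of these reads. Without it the sums were 2197 and 1851 against 1179 and 1168 CPM, again without overlap. In whole tissue, fewer cells that hold a transcript and less of it per cell cannot be told apart.

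Gene by gene, 38 of the 95 P450 genes passed the filter and were tested, and 57 did not. No P450 gene passed the adjusted threshold in edgeR QL, against 0.491% of all genes tested. At an unadjusted p under 0.05 in the same test, 12 of the 38 were lower in p53-/- SI (31.6%, where the share over all genes tested was 7.92%) and 4 were higher (10.5%, against 10.05%). Both p53-/- libraries lay below both p53+/+ libraries for 15 of the 38 (39.5%, against 24.4% of all genes) and above them for 8 (21.1%, against 26.4%). DESeq2, a test with another estimate of the spread, put 12 of the 38 past its adjusted threshold as lower (4.12% of all genes) and 1, Cyp2d34, as higher (5.05% of all genes). edgeR's likelihood ratio test gave 11 lower (2.87% of all genes) and 1 higher (5.18%). The sign of the difference was nearly even, with 20 of 38 negative and a median log2 fold change of -0.09 (-0.01 over all genes tested). The 12 genes that were lower at the unadjusted p, Cyp4f14 among them, held 79.1%, 78.1%, 66.3% and 62.1% of the P450 reads. They were chosen for being higher in libraries 7 and 8, which raises their share there.

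**Figure D1:**
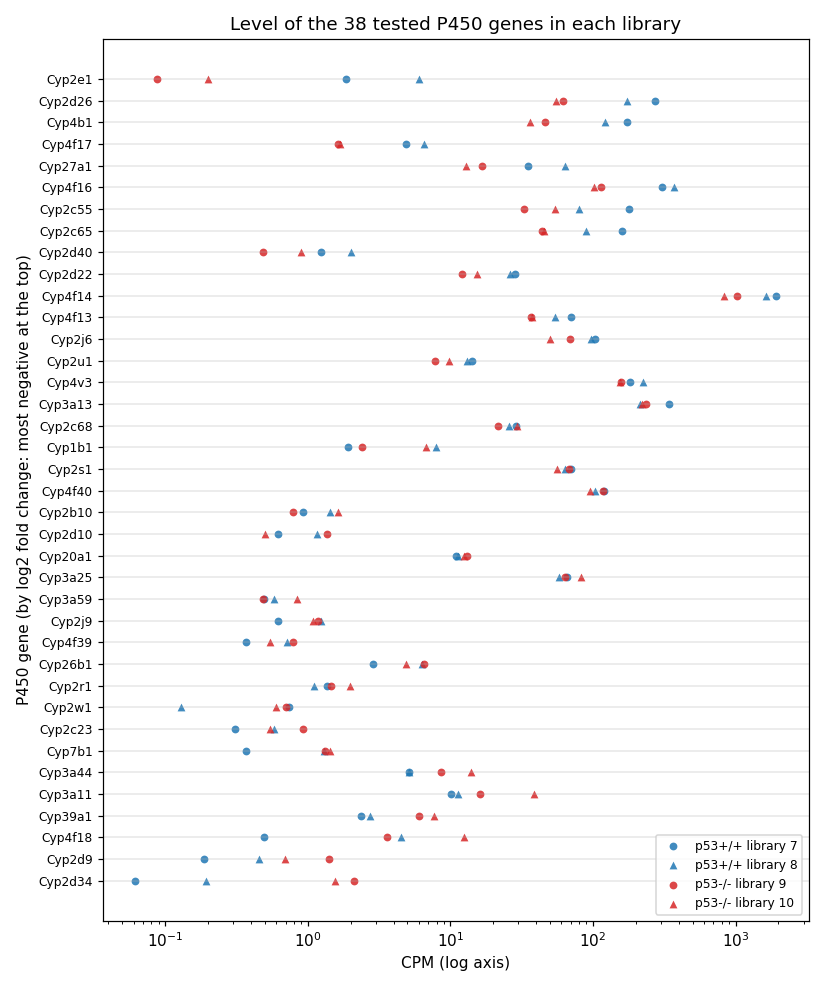
Level of each of the 38 tested P450 genes in CPM (log axis) in the p53+/+ libraries 7 and 8 (blue) and the p53-/- libraries 9 and 10 (red), ordered by log2 fold change. Blue points lie to the right of both red points for 15 genes, from Cyp2e1 at the top to Cyp4v3, and red points lie to the right for 8, most of them under 20 CPM.

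Per kilobase of exon, the scale on which genes can be set side by side, Cyp4f14 had the highest mean level in both genotypes (739 CPM per kb in p53+/+ and 384 in p53-/-). Cyp3a13 (93.4 and 77.04 CPM per kb), Cyp2d26 (124 and 32.4), Cyp4f16 (110 and 35.0) and Cyp4v3 (53.6 and 40.9) came next by the mean of all libraries. In p53+/+ SI the order was Cyp4f14, Cyp2d26, Cyp4f16 and Cyp3a13, and in p53-/- SI it was Cyp4f14, Cyp3a13, Cyp4f40 and Cyp4v3. The 2 libraries of a genotype spread widely for some of these genes (the p53+/+ values of Cyp3a13 were 339 and 213 CPM), so no order is read among the genes after Cyp4f14.

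The fatty acid hydroxylases, which oxidize the end of fatty acid and eicosanoid chains, were the most abundant role group. Of 18 genes 10 were tested, 8 had a negative difference (50.7% of all genes did), 7 were lower without overlap (24.4% of all genes) and 5 had an unadjusted p under 0.05 in edgeR QL and were lower (7.92% of all genes). Their median log2 fold change was -0.69, and their sum was 2808 and 2539 CPM in p53+/+ and 1511 and 1281 CPM in p53-/- SI (52.2% of the p53+/+ mean). Cyp4f14, which hydroxylates leukotrienes and vitamin E, was at 1937, 1640, 1026 and 832 CPM. Both p53-/- libraries were lower, with a log2 fold change of -0.94 (SE 0.273, adjusted p = 0.177 in edgeR QL). Cyp4f16, a relative with less studied substrates, was at 305, 369, 114 and 101 CPM. The genotypes were separate, with a log2 fold change of -1.65 (SE 0.201), the smallest adjusted p of any P450 gene (0.0510 in edgeR QL). Cyp4b1, which hydroxylates medium-chain fatty acids and activates some plant toxins, was at 173, 122, 46.4 and 36.3 CPM, again without overlap, with a log2 fold change of -1.83 (SE 0.245, adjusted p = 0.0569 in edgeR QL). Cyp4f17 stood much lower at 4.89, 6.55, 1.62 and 1.69 CPM (log2 fold change -1.78, SE 0.422, adjusted p = 0.134 in edgeR QL). Cyp4f13 was at 70.2, 53.8, 36.6 and 37.2 CPM (log2 fold change -0.75, SE 0.185, adjusted p = 0.145 in edgeR QL). Leaving out 1 library at a time kept the log2 fold changes of Cyp4f16 between -1.77 and -1.51 and of Cyp4b1 between -2.07 and -1.55.

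Other members of the group had smaller differences or overlapped between genotypes. Cyp4f40 was at 119, 103, 117 and 95.6 CPM, with genotypes that overlapped and a log2 fold change of -0.07 (SE 0.186), which turned positive when library 7 or library 10 was left out (up to 0.12). Cyp4v3, the mouse form of a fatty acid hydroxylase mutated in an inherited retinal disease, was at 183, 225, 158 and 154 CPM, lower in both p53-/- libraries (log2 fold change -0.39, SE 0.188, adjusted p = 0.359 in edgeR QL). Cyp4f18, a leukotriene hydroxylase of neutrophils and other leukocytes, was at 0.495, 4.54, 3.59 and 12.4 CPM and overlapped between genotypes. The summed macrophage markers were at 94.6, 231, 297 and 730 CPM, also lowest in library 7 and highest in library 10. Their part in the level of Cyp4f18 was not tested.

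The Cyp4f genes other than Cyp4f18 form 1 run of neighbours on chromosome 17, in the order Cyp4f39, Cyp4f17, Cyp4f16, Cyp4f37, Cyp4f40, Cyp4f15, Cyp4f14 and Cyp4f13. The run holds abundant and nearly silent genes, and Cyp4f40 stands between Cyp4f16 and Cyp4f14. Set against Cyp4f40 reads of the same library, a ratio that no scaling of libraries can move, Cyp4f16 had 256, 358, 97.3 and 106 reads per 100 Cyp4f40 reads. Cyp4f14 had 1620, 1590, 879 and 870 per 100. Both were lower in the p53-/- libraries. The ratio shows unequal difference between neighbours and not that Cyp4f40 itself was constant. Reads could have been shared between copies, as 5.95% of the 100-base windows of Cyp4f16 also occur in another gene (mostly Cyp4f37, which had 1 count in all), while no window of Cyp4f14 does.

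**Figure D2:**
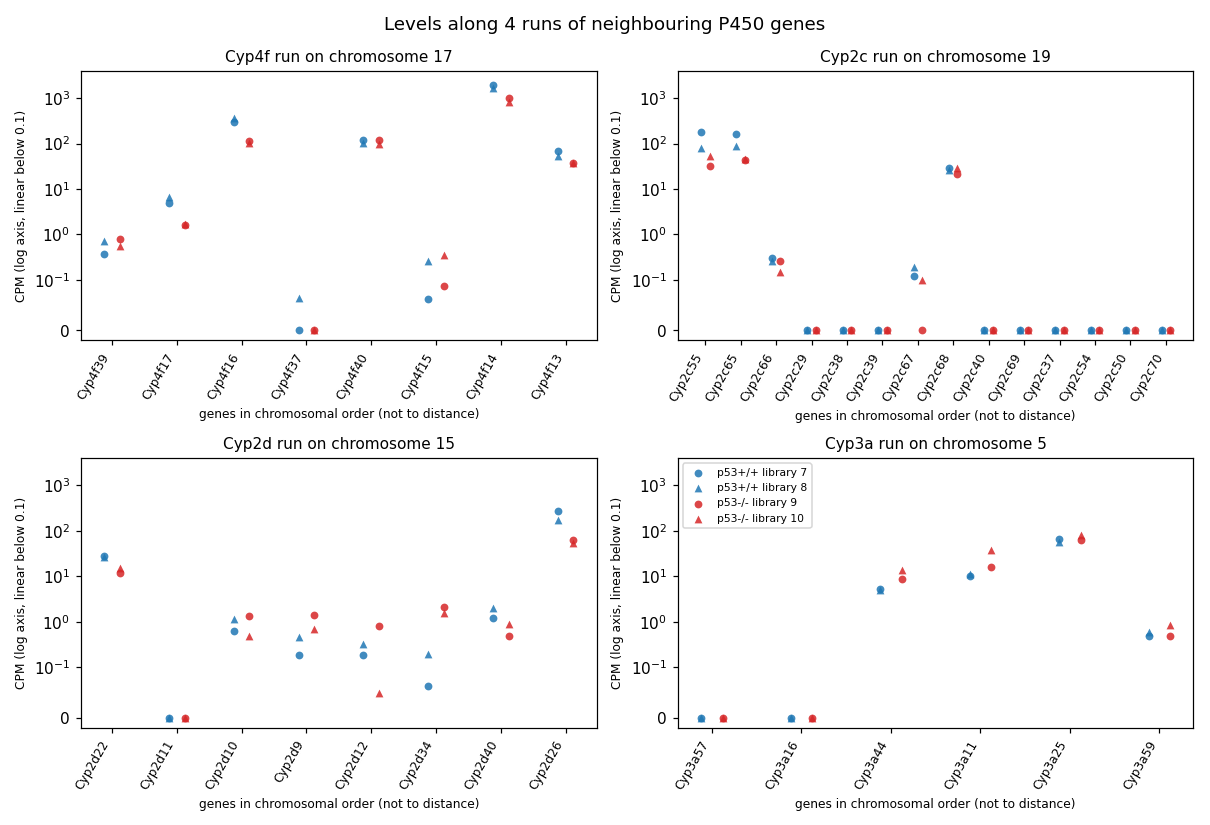
CPM (log axis, linear below 0.1) of the genes in 4 runs of neighbouring P450 genes, placed in chromosomal order and not to distance, for the p53+/+ (blue) and p53-/- (red) libraries. In the Cyp4f run Cyp4f37 has 1 count in all and Cyp4f14 reaches 1937 CPM, and in the Cyp2c run 9 of 14 genes have 0 counts in every library.

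The promoters of the members that carried these differences are shown because genes that stand side by side and differ in level can be compared at the sequence just before their start. RefSeq promoters on GRCm38.p6, from 250 bases before to 50 bases after the start, were listed for 73 of the 95 genes and 31 of the 38 tested. Capitals mark matches, on either strand, to the nuclear receptor half-site AGGTCA, the aryl hydrocarbon receptor core GCGTG, the HNF1 half-site GTTAAT, the CDX2 motif TTTATG or the p53 half-site. The first 4 are Cyp4f14, the most abundant P450 gene, and 1 lower gene each of the Cyp4f, Cyp2c and Cyp2d subfamilies. Cyp2c65, Cyp4f13, Cyp27a1, Cyp4b1, Cyp2e1 and Cyp2j6, also lower, have listed promoters with 0 matches to these motifs and are not shown. The 4 lower genes shown are therefore those with a match. The listed promoter of Cyp4f40 holds 1 GTTAAT match and is not shown either. The last 3 are neighbouring Cyp3a genes, of which Cyp3a25 overlapped between genotypes.
Cyp4f14 (chr17:32917307-32917606, minus strand): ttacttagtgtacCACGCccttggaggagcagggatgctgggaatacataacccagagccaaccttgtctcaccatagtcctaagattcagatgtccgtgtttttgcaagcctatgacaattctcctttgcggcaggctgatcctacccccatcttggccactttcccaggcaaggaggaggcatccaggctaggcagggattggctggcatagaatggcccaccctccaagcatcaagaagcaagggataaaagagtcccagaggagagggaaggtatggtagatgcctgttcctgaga
Cyp4f16 (chr17:32536307-32536606, plus strand): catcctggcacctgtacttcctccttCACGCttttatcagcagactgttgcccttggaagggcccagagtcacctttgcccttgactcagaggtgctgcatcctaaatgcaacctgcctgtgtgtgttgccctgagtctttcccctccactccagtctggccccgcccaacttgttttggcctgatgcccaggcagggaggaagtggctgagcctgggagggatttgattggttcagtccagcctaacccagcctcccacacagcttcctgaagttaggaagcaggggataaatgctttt
Cyp2c55 (chr19:39006769-39007068, plus strand): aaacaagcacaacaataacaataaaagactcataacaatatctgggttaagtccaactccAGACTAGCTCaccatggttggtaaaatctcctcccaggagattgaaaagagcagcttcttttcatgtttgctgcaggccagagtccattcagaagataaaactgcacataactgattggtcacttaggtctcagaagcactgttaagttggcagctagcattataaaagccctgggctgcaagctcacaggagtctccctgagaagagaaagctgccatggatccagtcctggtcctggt
Cyp2d26 (chr15:82794196-82794495, minus strand): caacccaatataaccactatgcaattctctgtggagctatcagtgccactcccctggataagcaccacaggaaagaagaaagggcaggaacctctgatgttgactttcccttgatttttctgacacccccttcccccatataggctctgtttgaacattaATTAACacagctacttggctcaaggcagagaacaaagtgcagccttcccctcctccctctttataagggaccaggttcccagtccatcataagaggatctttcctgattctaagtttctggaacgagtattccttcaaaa
Cyp3a11 (chr5:145879805-145880104, minus strand): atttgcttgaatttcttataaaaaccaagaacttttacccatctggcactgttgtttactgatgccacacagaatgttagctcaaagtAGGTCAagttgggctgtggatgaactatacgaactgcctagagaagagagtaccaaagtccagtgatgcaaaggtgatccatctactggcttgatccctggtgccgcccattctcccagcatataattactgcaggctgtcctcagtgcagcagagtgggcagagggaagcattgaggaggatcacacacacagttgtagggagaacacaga
Cyp3a44 (chr5:145805825-145806124, minus strand): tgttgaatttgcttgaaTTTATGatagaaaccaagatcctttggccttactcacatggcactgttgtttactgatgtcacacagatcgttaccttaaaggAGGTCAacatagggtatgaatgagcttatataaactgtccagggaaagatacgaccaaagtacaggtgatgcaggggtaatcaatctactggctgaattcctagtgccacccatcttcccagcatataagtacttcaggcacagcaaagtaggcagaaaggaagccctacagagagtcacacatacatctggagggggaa
Cyp3a25 (chr5:146009569-146009868, minus strand): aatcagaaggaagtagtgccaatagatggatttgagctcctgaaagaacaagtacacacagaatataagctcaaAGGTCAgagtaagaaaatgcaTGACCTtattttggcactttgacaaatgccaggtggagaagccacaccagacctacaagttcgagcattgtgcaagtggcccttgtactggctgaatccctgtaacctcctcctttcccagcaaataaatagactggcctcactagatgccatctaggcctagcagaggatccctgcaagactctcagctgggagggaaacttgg
The promoters of Cyp4f14 and Cyp4f16 each held 1 GCGTG core, that of Cyp2c55 the p53 half-site and that of Cyp2d26 a GTTAAT half-site. AGGTCA occurred in the promoters of 5 tested P450 genes of 31 (16.1%, against 16.0% of 27025 promoters): Cyp3a11, Cyp3a44, Cyp3a25, Cyp3a59 and Cyp2d40. Cyp2d40 was itself lower without overlap but is not among the 12 lower genes. Of the 10 listed promoters of these 12, 0 held AGGTCA, 2 GCGTG, 1 GTTAAT, 0 TTTATG and 1 the p53 half-site. With 10 promoters, such counts cannot be told apart from the shares over all promoters. GCGTG was in 11 of 31 (35.5%, against 32.5%), GTTAAT in 3 (9.68%, against 7.20%), TTTATG in 2 (6.45%, against 12.1%) and the p53 half-site in 1 (3.23%, against 8.37%). A match is only a run of letters in this window, and more distant sites were not searched.

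The drug and xenobiotic group, whose enzymes clear foreign compounds and also act on fatty acids and steroids, was mixed. Of 46 genes 18 were tested, with 9 negative and 9 positive and a median log2 fold change of -0.03, and 6 were lower and 4 higher without overlap (24.4% and 26.4% of all genes). At an unadjusted p under 0.05 in edgeR QL, 5 of the 18 were lower and 3 higher (7.92% and 10.05% of all genes). The sum of the 46 genes was 1164 and 759 CPM in p53+/+ and 573 and 618 CPM in p53-/- SI (61.9% of the p53+/+ mean). The sums of the main subfamilies differed. Summed Cyp2c genes were at 368.5, 196, 99.3 and 130 CPM (40.6% of p53+/+), summed Cyp2d genes at 302, 204, 79.8 and 74.0 CPM (30.4%) and summed Cyp3a genes at 421, 287, 325 and 356 CPM (96.0%), so the first pair did not overlap between genotypes and Cyp3a did.

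Of 15 Cyp2c genes, 9 had 0 counts in all libraries and 4 were tested. Cyp2c55, which hydroxylates arachidonic acid, was at 179, 80.0, 32.8 and 54.5 CPM. Both p53-/- libraries were lower, but the p53+/+ libraries differed 2.23-fold from each other (log2 fold change -1.57, SE 0.447, adjusted p = 0.174 in edgeR QL). Its neighbour Cyp2c65 was at 160, 89.3, 43.8 and 45.2 CPM (log2 fold change -1.49, SE 0.299, adjusted p = 0.106 in edgeR QL). Cyp2c68 was at 29.1, 25.8, 21.6 and 29.4 CPM and overlapped (log2 fold change -0.11, SE 0.227, 0.09 without library 9). Of its 100-base windows 19.8% occur in another gene, mostly Cyp2c40 (0 counts in every library), the highest share of the tested members. For both Cyp2c55 and Cyp2c65 library 7 was highest. Without it their log2 fold changes were -0.87 and -0.997.

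Of 9 Cyp2d genes 6 were tested, and their levels spread from under 1 CPM to 271 CPM. Cyp2d26 was at 271, 174, 61.5 and 54.8 CPM, separate between genotypes, with a log2 fold change of -1.94 (SE 0.263, adjusted p = 0.0569 in edgeR QL, -2.23 to -1.57 with 1 library left out). Cyp2d22, the mouse gene closest to human CYP2D6, was at 28.5, 26.1, 12.0 and 15.3 CPM (log2 fold change -0.999, SE 0.229, adjusted p = 0.129 in edgeR QL). Cyp2d40 was near 1 CPM at 1.24, 2.01, 0.482 and 0.895 CPM (log2 fold change -1.23, SE 0.621). At the other end of the subfamily, Cyp2d34 had 1, 3, 48 and 31 counts (adjusted p = 0.106 in edgeR QL). The ratio of p53-/- to p53+/+ was 14.5 (95% exact interval 5.46 to 54.6, counting error only, libraries of a genotype pooled). Cyp2d34 passed the filter on low counts only through the p53-/- libraries, where it was high, so the filter favoured a large ratio. Cyp2d9, a testosterone hydroxylase of male liver, had 3, 7, 32 and 14 counts (log2 fold change 1.70, SE 0.776). Cyp2d9 also passed the filter only through the p53-/- libraries, so the filter favoured a high ratio there too. The median log2 fold change of the 6 genes was -0.47, and over the same 6 genes it was -0.13 without library 8 and -0.24 without library 10. In both cases Cyp2d12 also entered the test, and with it the median was 0.58 and 0.65.

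Cyp2e1, which oxidizes ethanol and other small molecules and is abundant in fat as well as liver, had 30, 93, 2 and 4 counts. The p53+/+ level was 27.9 times the p53-/- level (95% exact interval 12.4 to 77.4, counting error only, libraries of a genotype pooled). The log2 fold change was -4.74 (SE 0.892, adjusted p = 0.103 in edgeR QL). Cyp2e1 passed the filter on low counts only through the p53+/+ libraries, where it was high, so the filter favoured a large ratio. Adipocyte markers were lower in the same libraries. Of 9 tested, 7 were lower without overlap (24.4% of all genes). Cfd and Car3, 2 of the 9, passed the threshold in edgeR QL (0.491% of all genes, either direction). Like Cyp2e1, the markers Cfd, Car3, Adipoq, Plin1 and Retn passed the filter on low counts only through the p53+/+ libraries. The filter therefore favoured lower values of these markers in p53-/- SI, and their counts cannot be weighed against the shares over all genes. The other lower markers, Cidec and Fabp4, were read in every library. The sum of the markers was 166.5, 134.9, 36.7 and 28.4 CPM, of which Cidec alone made up 116.5, 43.2, 18.4 and 13.8 CPM. Adipoq had 40, 51, 0 and 3 counts, and Plin1 and Retn had 0 in both p53-/- libraries. The part of fat in the level of Cyp2e1, or of other P450 genes, was not tested.

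The Cyp3a genes, which metabolize the widest range of drugs and are targets of the pregnane X receptor, had no member on the lower side without overlap. Cyp3a13, the most abundant of the subfamily, was at 339, 213, 236 and 220 CPM (log2 fold change -0.28, SE 0.269, 0.11 without library 7). Cyp3a25 was at 66.1, 57.4, 63.7 and 82.5 CPM and also overlapped (log2 fold change 0.24, SE 0.192). Cyp3a11, the mouse gene most used as a readout of pregnane X receptor activity, was at 10.2, 11.3, 16.2 and 38.4 CPM. Both p53-/- libraries were higher (log2 fold change 1.35, SE 0.437, adjusted p = 0.209 in edgeR QL), with a value of 0.64 when library 10 was left out. Its neighbour Cyp3a44, a female-biased gene in liver, was at 5.14, 5.13, 8.63 and 14.0 CPM (log2 fold change 1.14, SE 0.370, adjusted p = 0.209 in edgeR QL). Library 10 was highest for both, and it also held 588 counts of the female-specific RNA Xist, where the other libraries had 0 to 4. The Y-linked gene Ddx3y was read in all libraries (482 to 739 counts). The part of these reads in the levels of the sex-biased Cyp3a44 and Cyp2d9 was not tested.

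**Figure D3:**
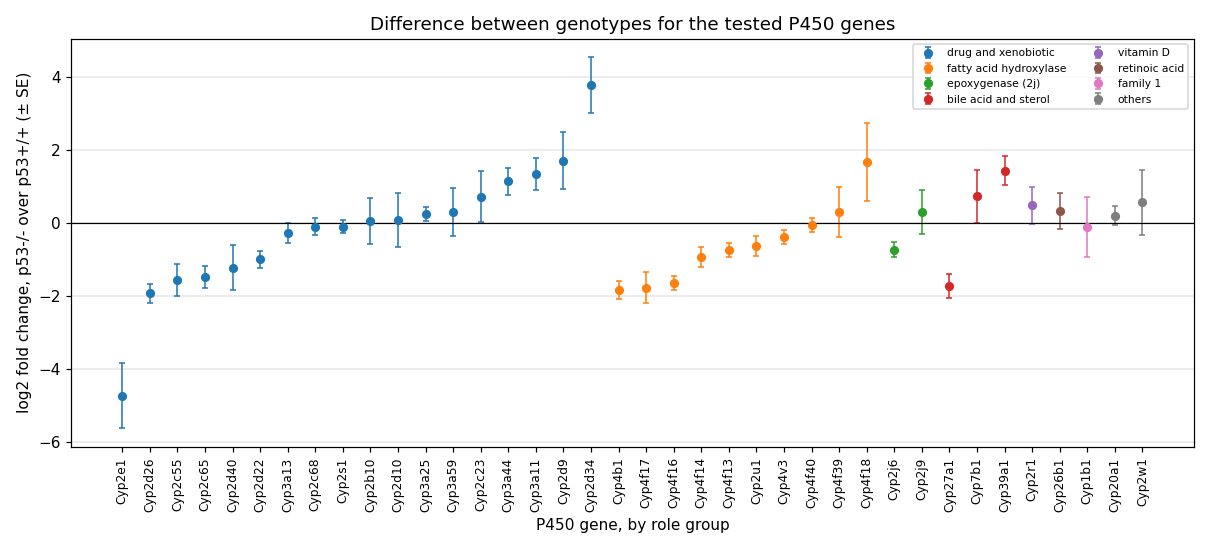
Log2 fold change (p53-/- over p53+/+, points, with SE as bars) of the 38 tested P450 genes, coloured by role group. The fatty acid hydroxylases have 8 of 10 points below 0, and the drug and xenobiotic group runs from -4.74 (Cyp2e1) to 3.77 (Cyp2d34) with 9 points on each side.

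Cyp2s1, found in epithelia outside the liver, was at 70.2, 63.5, 68.5 and 55.8 CPM (log2 fold change -0.11, SE 0.173). Of the 8 Cyp2j genes, which make epoxides from arachidonic acid, Cyp2j6 was the abundant one at 104, 96.6, 69.6 and 50.4 CPM, lower in both p53-/- libraries (log2 fold change -0.74, SE 0.205, adjusted p = 0.167 in edgeR QL). In family 1, Cyp1b1 was at 1.92, 7.92, 2.41 and 6.72 CPM, differed more within genotypes than between them and changed sign with single libraries (-0.99 to 1.24). Cyp1b1 was highest in library 8, where smooth muscle markers were too. In library 10, the next highest for Cyp1b1, these markers summed to 825.5 CPM, and in library 9 to 1164 CPM. The part of smooth muscle in the level of Cyp1b1 was not tested. The classic Ahr targets Cyp1a1 (0, 2, 1 and 4 counts) and Cyp1a2 (0, 0, 1 and 0) were at the detection limit, where 3 counts correspond to 0.131 to 0.195 CPM.

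The bile acid and sterol genes stood on both sides. Cyp27a1, a mitochondrial enzyme that oxidizes the side chain of cholesterol, was at 35.2, 63.7, 16.8 and 12.8 CPM, lower in both p53-/- libraries (log2 fold change -1.74, SE 0.335, adjusted p = 0.103 in edgeR QL). Cyp39a1, an oxysterol hydroxylase, was at 2.35, 2.73, 6.05 and 7.66 CPM, and both p53-/- libraries were higher (log2 fold change 1.43, SE 0.389, adjusted p = 0.164 in edgeR QL, 1.30 to 1.59 with 1 library left out). The oxysterol hydroxylase Cyp7b1 was at 0.371, 1.30, 1.32 and 1.44 CPM (log2 fold change 0.72, SE 0.723). The genes of bile acid synthesis in liver were not measurable, with 0 counts of the rate-limiting enzyme Cyp7a1 and 0, 1, 3 and 0 of Cyp8b1, and the brain enzyme Cyp46a1 had 0, 0, 3 and 1 counts.

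The vitamin, retinoid and hormone enzymes were scarce. Cyp2r1, which starts vitamin D activation, was at 1.36, 1.10, 1.45 and 1.99 CPM (log2 fold change 0.48, SE 0.510). Cyp27b1, which completes it, had 1, 1, 3 and 7 counts, and Cyp24a1, which degrades the product and is a target of the vitamin D receptor, had 0. Among the enzymes that clear retinoic acid, Cyp26b1 was at 2.85, 6.29, 6.49 and 4.92 CPM (log2 fold change 0.32, SE 0.503, -0.13 without library 7), while Cyp26a1 and Cyp26c1 had 1 count each in all. Of the steroid hormone enzymes, Cyp11b1, Cyp19a1 and Cyp21a1 had 0 counts, Cyp11a1 had 2, 1, 2 and 0, Cyp11b2 had 0, 0, 4 and 0, and Cyp17a1 had 12, 4, 8 and 2. Cyp20a1, whose substrate is not established, was at 11.02, 11.4, 13.2 and 12.4 CPM, higher in both p53-/- libraries by a log2 fold change of only 0.19 (SE 0.255). Of the 57 genes not tested, 30 had 0 counts in all libraries, among them 9 of the Cyp2c and 3 of the Cyp2a genes, and none of the other 27 exceeded 18 counts in a library.

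The partners and regulators of P450 enzymes, a list of 33 genes of which 32 were tested, leaned to the lower side. None passed the adjusted threshold in edgeR QL, 13 were lower and 1 higher at an unadjusted p under 0.05 (against the 7.92% and 10.05% of all genes), and DESeq2 put 6 past its threshold as lower (4.12% of all genes). Of the 32, 28 had a negative difference (50.7% of all genes), 18 were lower and 3 higher without overlap (24.4% and 26.4% of all genes), and the median log2 fold change was -0.39. The 32 include Cyp51, itself a P450 gene that the symbol rule did not match. Cyp51 is counted among the lower genes (log2 fold change -0.81, SE 0.232, adjusted p = 0.176 in edgeR QL). Por, the electron donor of microsomal P450 enzymes, was at 278, 126, 74.0 and 59.7 CPM. Both p53-/- libraries were lower, while the p53+/+ libraries stood far from each other (log2 fold change -1.60, SE 0.396, adjusted p = 0.145 in edgeR QL). Fdx1, the donor in mitochondria, was at 39.5, 29.9, 20.1 and 24.2 CPM (log2 fold change -0.65, SE 0.225, adjusted p = 0.231 in edgeR QL), and Fdxr overlapped at 10.4, 7.92, 6.09 and 8.11 CPM. The microsomal epoxide hydrolase Ephx1, which opens epoxides that P450 enzymes make, was at 77.3, 77.3, 4.38 and 14.5 CPM, the most negative difference of the 32 tested (log2 fold change -3.04, SE 0.548, adjusted p = 0.0946 in edgeR QL).

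Among the receptors, Nr1i2 was at 130, 111, 86.5 and 72.1 CPM, lower in both p53-/- libraries (log2 fold change -0.60, SE 0.183, adjusted p = 0.192 in edgeR QL), while its target Cyp3a11 was on the higher side. Nr1i3, the related constitutive receptor, was under 1 CPM in all libraries (14, 2, 16 and 2 counts). Ahr was at 10.2, 10.5, 14.9 and 18.1 CPM, higher in both p53-/- libraries (log2 fold change 0.68, SE 0.257, adjusted p = 0.261 in edgeR QL). Hnf4a, a factor of differentiated gut epithelium, was at 1454, 1101, 1143 and 777 CPM and overlapped (log2 fold change -0.41, SE 0.313), as did Nr5a2 at 36.1, 34.4, 37.5 and 30.4 CPM (log2 fold change -0.05, SE 0.181).

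**Figure D4:**
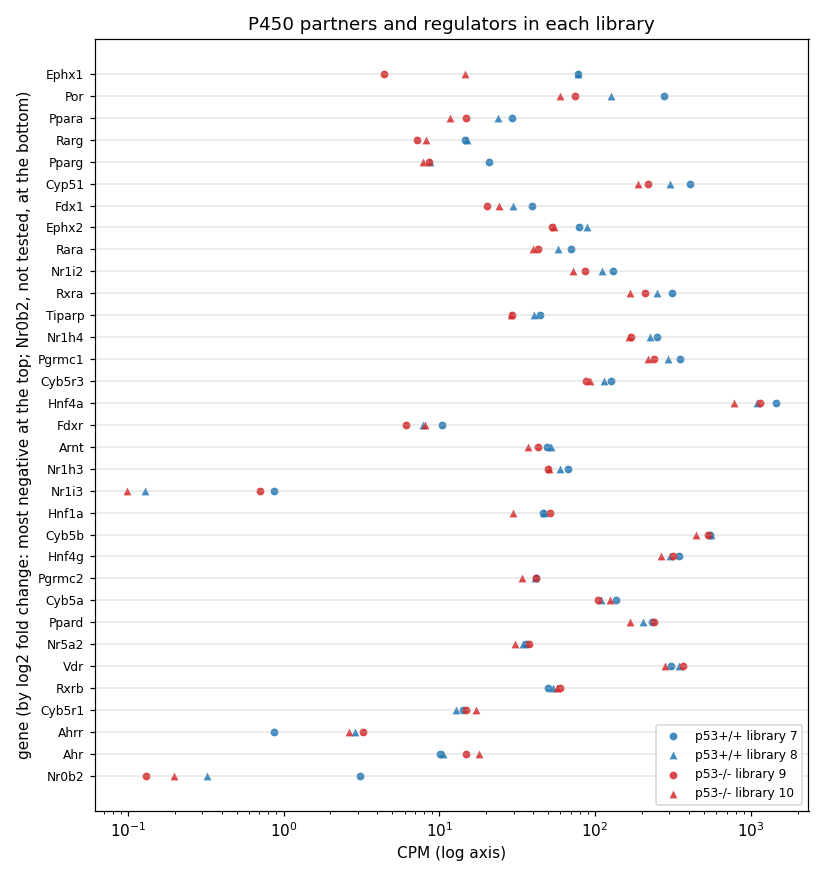
CPM (log axis) of the 33 partners and regulators of P450 enzymes in the p53+/+ (blue) and p53-/- (red) libraries, ordered by log2 fold change with the gene not tested (Nr0b2) at the bottom. Red points lie left of both blue points for Ephx1, Por, Ppara and others, 18 of the 32 tested, and right of them for Ahr, Cyb5r1 and Rxrb.

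Markers of the epithelium and of gut segments differed between genotypes beside the P450 genes. All 10 enterocyte markers had a negative difference, with a median log2 fold change of -0.62 and sums of 28870, 27720, 22310 and 18390 CPM, and none was past the threshold in edgeR QL. By DESeq2 3 of the 10 were past the threshold as lower (4.12% of all genes), and 5 were lower without overlap (24.4%). Vil1, 1 of these markers, had a log2 fold change of -0.46, and P450 reads can be set against Vil1 reads of the same library. Such a ratio depends on the marker taken. Alpi (-0.93), Apoa1 (-0.88) and Fabp2 (-0.77) had more negative log2 fold changes than Vil1. Krt20 (-0.27), Anpep (-0.21) and Sis (-0.06) had less negative ones, and that of Cyp4f14 was -0.945. Ratios to the other enterocyte markers were not taken. Cyp4f16 had 10.6, 13.9, 4.86 and 5.99 reads per 100 Vil1 reads, Cyp2d26 had 9.44, 6.54, 2.63 and 3.24, and Cyp4f14 had 67.5, 61.7, 43.9 and 49.2. On this ratio 10 of the 38 P450 genes were lower without overlap in p53-/- SI (26.3%, against 4.98% of all genes) and 16 were higher (42.1%, against 52.04%).

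Of 9 markers of distal SI, 7 were lower without overlap (24.4% of all genes), with sums of 14800, 10130, 6799 and 6313 CPM. Of 9 markers of proximal SI, 5 were higher without overlap and 3 lower (26.4% and 24.4% of all genes), with sums of 88.3, 60.2, 137 and 121 CPM. The 3 lower were Lct, Slc46a1 and Rdh7. Fabp6 and Slc10a2, which define the ileum, were at no less than 717 CPM in each of the 4 libraries, and the proximal markers Lct and Fabp1 were low in every library. The proximal marker Slc40a1 was at 32.4, 21.2, 92.0 and 73.8 CPM, and Adh6a, Cybrd1, Gata4 and Onecut2 were also higher in both p53-/- libraries. The part of the sampled segment in the P450 differences was not tested.

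**Figure D5:**
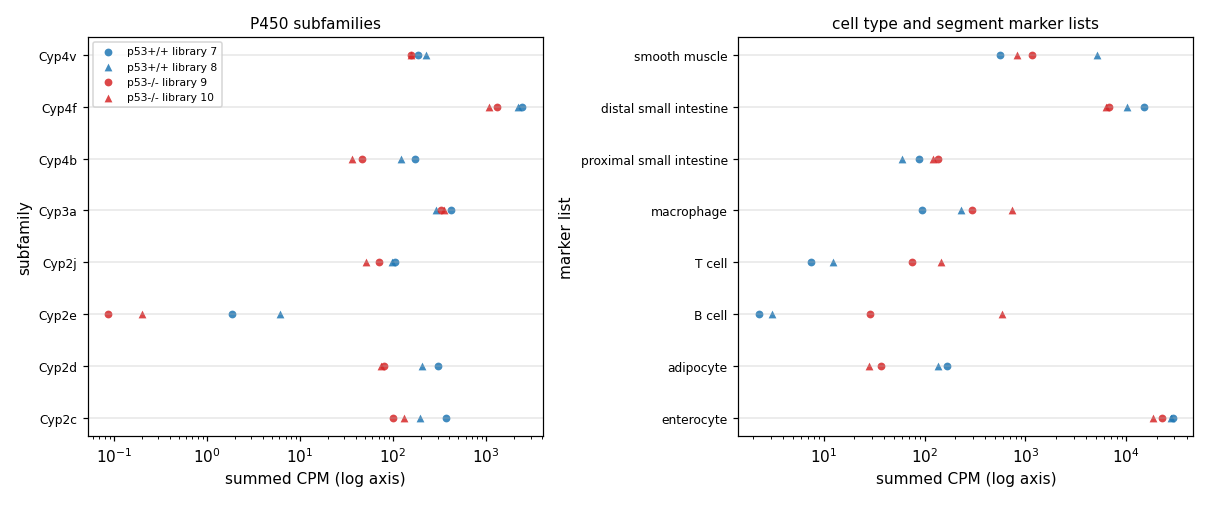
Summed CPM (log axis) of 8 P450 subfamilies (left) and 8 marker lists (right) in each library. The Cyp4f, Cyp2c, Cyp2d, Cyp2e and Cyp4b sums are separate between genotypes and the Cyp3a sums overlap, and among the marker lists the adipocyte and enterocyte sums are lower and the B and T cell sums higher in both p53-/- libraries.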

How the data were processed

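RNA-seq was done on the SI of 2 p53+/+ and 2 p53-/- mice 1 day post 12 Gy TBI. The table the authors deposited holds unnormalized read counts for each gene. The submitters' processing notes name fastp, HISAT2 2.0.5, featureCounts 1.5.0-p3 and DESeq2 1.20.0. The genome build and the strand setting are not given in the sources used here, so reads of paralogs or overlapping genes may have been split, and no gene coordinates are given other than those of RefSeq promoters. Its columns are named for the genotype and carry no replicate number of the labels. No column was left unmapped (0).

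Counts were scaled by TMM and low genes removed by filterByExpr (edgeR 4.0.16, R 4.3.3). The whole table was fitted once with the quasi-likelihood test, two-sided, Benjamini-Hochberg over 16094 genes, threshold 0.05. Totals ranged from 15005479 to 22173164 counts, and 1 count corresponded to 0.0438 to 0.0649 CPM. Within each genotype the libraries differed beyond sampling noise (chi-square per degree of freedom 50.8 and 78.5). P-values of edgeR QL set the difference against the spread between 2 libraries per genotype, drawn toward the spread of all genes (3.454 prior degrees of freedom). Exon lengths, gene order and windows shared between genes came from GENCODE M21, which holds 91.8% of the identifiers. Ratios of few counts have exact binomial intervals. The fits were first tested on simulated data with known changes.

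Alternatives were RLE factors, library totals only, DESeq2 1.42.0, edgeR's likelihood ratio test, tests without a filter or on genes with at least 10 counts throughout, removal of immunoglobulin and T cell receptor segments, summed subfamilies and each library left out. Counts at an unadjusted p and ratios to Vil1 and Cyp4f40 were added after seeing the data. Members, role groups and marker lists were chosen with earlier results of these data known. Named are P450 genes past the threshold, the 12 highest and 12 lowest without overlap, the 15 highest per kilobase, those of the bile acid, vitamin D, retinoic acid, steroid and family 1 groups, and fixed partners. Other genes named were chosen after their values were seen.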

Additional observations from a re-analysis of the deposited data

How the results depend on the processing

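No paired analysis was possible because the columns carry no replicate numbers of the labels. The cause of the differences below was not tested. P450 genes past the threshold (0 lower, 0 higher) became 12 and 1 with DESeq2, 11 and 1 with edgeR's likelihood ratio test (LRT), 11 and 3 with no filter and 1 (Cyp4f16) and 0 without immunoglobulin and T cell receptor segments, and ranged from 0 to 6 and 0 to 1 with 1 library left out. The 4 higher at an unadjusted p, a count chosen after seeing the data, ranged from 1 (without library 10) to 5. The 12 lower were kept in every setting with all libraries, with 1 further gene under DESeq2, except that 11 of them were kept with at least 10 counts in every library, and 9 of them were lower without library 9 and 9 without library 10. The count above both p53+/+ libraries (8) was 14 with no filter and 11 to 17 with 1 library left out, where fewer values have to be separate. Partners past the threshold (0) were 6 with DESeq2, 3 with edgeR's LRT, 5 with no filter and 0 to 4 with 1 library left out. Over all genes, 48 higher and 31 lower became 26 and 20 with library totals only, 812 and 663 with DESeq2, 833 and 462 with edgeR's LRT, 1433 and 761 with no filter, 24 and 18 with at least 10 counts, and 0 to 680 and 0 to 344 with 1 library left out (0 and 0 without library 10). No filter moved the median log2 fold change of all genes to 0.15, and that of the P450 genes (-0.09) to 0.23, which was -0.20 with at least 10 counts and -0.22 to -0.10 with 1 library left out. Median log2 fold changes with 1 library left out ranged from -1.03 to -0.44 for Cyp2c (-0.80, -1.40 with at least 10 counts, -1.30 summed), -0.84 to 0.65 for Cyp2d (-0.47, 0.44 with no filter, -1.05 with at least 10 counts, -1.72 summed, with Cyp2d12 entering the test without library 7, 8 or 10), 0.10 to 0.64 for Cyp3a (0.29, 0.76 with at least 10 counts, -0.06 summed) and -0.93 to -0.54 for Cyp4f (-0.75, -0.96 summed). They ranged from -0.81 to -0.56 for fatty acid hydroxylases (-0.69, -0.44 with no filter), -0.11 to 0.14 for the drug and xenobiotic group (-0.03, 0.03 with library totals only, 0.09 with no filter) and 0.09 to 1.53 for the bile acid group (0.72, -0.09 with at least 10 counts). With 1 library left out the log2 fold change ranged across 0 for Cyp1b1 (-0.99 to 1.24), Cyp26b1 (-0.13 to 1.00), Cyp2c68 (-0.29 to 0.09), Cyp2s1 (-0.27 to 0.09), Cyp3a13 (-0.58 to 0.11) and Cyp4f40 (-0.22 to 0.12, 0.00 with library totals only and 0.01 with at least 10 counts). With 2 libraries per genotype, P450 genes under about 1 CPM rest on few counts.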
